A study of Mus musculus with 2 samples.

Results

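The purine salvage enzyme genes Hprt and Aprt were described beside 8 genes of purine nucleotide synthesis, Ppat, Gart, Paics, Adsl, Atic, Adss, Impdh1 and Impdh2, in Ago1 knockout mouse embryonic stem (ES) cells. The 10 symbols were given as a list and matched to the Ensembl identifiers of a table of 55421 genes through GENCODE release M21, and all 10 were found. The set was chosen by its metabolic roles and by the low level of Hprt measured in these same 2 libraries, so the level of Hprt is a description and supports nothing by itself. The study holds 2 libraries of polyadenylated RNA from 1 group, AGO1 knockout cells of the E14 line on a 129/Ola background, called KO1 and KO2 here. The cells were grown on gelatin in medium with serum and leukaemia inhibitory factor (LIF), with no treatment given in the labels. Whether KO1 and KO2 are separate clones, or separate cultures of 1 clone, is not given, and their spread may be technical. No comparison of knockout with wild-type cells was made, for want of a control group among the samples used.

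As background, cells make purine nucleotides by recovering free bases or by building the ring anew on phosphoribosyl pyrophosphate (PRPP). HPRT joins hypoxanthine or guanine to PRPP, and APRT does the same with adenine. PPAT starts the new synthesis, GART, PAICS, ADSL and ATIC carry out later steps up to inosine monophosphate (IMP), and IMP is then turned to AMP through ADSS and ADSL or towards GMP through IMPDH1 and IMPDH2. HPRT is known in ES cell work as a selectable marker, and E14TG2a, a derivative of E14 in wide use, was selected for loss of HPRT. The labels name the line E14 only and give no Hprt genotype, and whether these cells carry a change at Hprt was not tested.

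The stretch of 250 bases before the transcript start is shown for Hprt, the lowest of the 10 genes, for Aprt, the other salvage gene, and for Gart, a well-expressed synthesis gene whose stretch held no annotated exon. Sequences are those of RefSeq on GRCm38.p6, which is a C57BL/6J assembly and not the genome of these cells, and they run 5′ to 3′ on the strand of the gene. Capitals mark matches to any of 5 searched motifs on either strand, which were the GC box GGGCGG, the CCAAT box CCAAT, the TATA box TATAAA, the E-box CACGTG and the ETS site CCGGAAG. Hprt lay at chrX:52987828-52988077 on the plus strand, Aprt at chr8:122576908-122577157 on the minus strand and Gart at chr16:91646973-91647222 on the minus strand.
Hprt: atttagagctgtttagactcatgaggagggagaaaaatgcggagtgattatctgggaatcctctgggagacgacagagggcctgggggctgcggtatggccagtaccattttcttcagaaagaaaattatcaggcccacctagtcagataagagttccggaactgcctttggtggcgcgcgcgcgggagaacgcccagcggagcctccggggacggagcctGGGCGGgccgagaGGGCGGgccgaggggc
Aprt: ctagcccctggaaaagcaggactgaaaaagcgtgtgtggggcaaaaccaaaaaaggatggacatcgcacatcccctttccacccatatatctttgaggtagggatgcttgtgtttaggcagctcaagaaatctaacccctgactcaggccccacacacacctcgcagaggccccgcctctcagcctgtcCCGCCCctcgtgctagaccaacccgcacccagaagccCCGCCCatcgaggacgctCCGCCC
Gart: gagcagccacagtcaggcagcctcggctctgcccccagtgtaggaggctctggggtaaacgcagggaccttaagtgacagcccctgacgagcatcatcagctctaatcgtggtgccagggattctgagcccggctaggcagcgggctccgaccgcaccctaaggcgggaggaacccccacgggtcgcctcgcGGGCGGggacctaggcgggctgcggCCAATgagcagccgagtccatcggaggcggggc
The capitals are 2 GC boxes in the Hprt stretch, 3 in the Aprt stretch, and 1 GC box and 1 CCAAT box in the Gart stretch. All 10 genes had an entry in RefSeq, with 11 windows because Impdh1 has 2 starts. A GC box was present in 11 of the 11 windows, against 32.7% of 32851 windows of all genes. The E-box was present in 3 of 11, those of Atic, Paics and Impdh2, against 6.02%, and the CCAAT box in 3 of 11, those of Gart, Atic and Paics, against 33.8%. The ETS site was found in 1 of 11, that of Ppat, where it overlaps a GC box, against 6.91%. The TATA box was found in 0 of 11, against 12.4%. The member windows had a median GC content of 65.2% and a median of 19 CpG dinucleotides, against 52.4% and 6 over all windows. A match is a description of letters, not a site of binding, and a missing match says only that these letters are not in the window.

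KO1 held 57048330 counted reads and KO2 54408708. Levels are given in counts per 1000000 (CPM) with trimmed mean of M values (TMM) scaling, and as CPM per kb of merged exons wherever genes are compared with each other. Intervals are exact Poisson 95% intervals and cover counting error only. The targeted gene, Ago1, was at 1497 counts in one library (KO1) and 452 in the other (KO2), and without a control library its level does not check the labels. Its log2 ratio of KO2 over KO1 was -1.67 (95% interval -1.83 to -1.52), a call lower in KO2 by the 2-fold rule given below, made for 0.0768% of genes. All 8 ES cell markers listed were detected, with Pou5f1 at 781 and 1170 CPM. Of 8 fibroblast markers, 2 reached 1 CPM in each library, which is the detection threshold used throughout, and the sum of the list was 25.5 CPM in KO1 and 30.5 in KO2, and most of it came from Thy1, at 20.4 and 23.9 CPM, and Pdgfrb, at 4.37 and 5.11. Lum and Postn were at 0 in both libraries. The summed level of 8 skeletal muscle markers was 12.9 CPM in KO1 and 3.88 in KO2. By the rule given below, 7 of the 8 were lower in KO2. Mb, which was not called, was at 1.69 CPM in KO1 and 2.18 in KO2. It was the only 1 of the 8 detected in both libraries. Of the exons of Tnnc2, another of the 8, 74.0% lie under a gene on the other strand, so its count is uncertain. The muscle markers were chosen with earlier results of these data known, so the count of 7 lower in KO2 is a description only. The ratio of KO2 to KO1 rose with the GC content of the transcript (Spearman 0.811 over 15603 genes, a description, since genes of the same 2 libraries are not replicates).

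Hprt was covered by 98 reads in KO1 and 83 in KO2, or 1.72 CPM (95% interval 1.40 to 2.10) and 1.52 CPM (1.21 to 1.88), so both libraries were low and their intervals overlapped. Hprt (ENSMUSG00000025630) lies on chromosome X from 52988137 to 53021659 on the plus strand of GRCm38. Per kb of its 1289 bases of merged exons the level was 1.34 in KO1 and 1.18 in KO2, a mean of 1.26 ± 0.113 CPM per kb (SD, n = 2). This mean exceeded that of 2224 of the 12148 detected protein-coding genes, and of 82 of the 429 such genes on chromosome X. Hprt passed the detection threshold in both libraries but lay near it, and 24.1% of all genes and 55.3% of protein-coding genes passed. No other annotated gene shared its exons, and no other transcript of the annotation matched its transcript at 95% identity over 200 bases. The table gives counts per gene, so it does not show which exons the Hprt reads covered.

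Aprt, the other salvage enzyme among the members, was covered by 3290 reads in KO1 and 6385 in KO2, or 57.9 CPM (55.9 to 59.9) and 117 CPM (114 to 120), so Aprt was higher in KO2 with no overlap of the intervals. Its gene (ENSMUSG00000006589) spans 122574635 to 122576909 of chromosome 8, minus strand. Per kb the level was 35.9 in KO1 and 72.4 in KO2. Aprt was 26.8-fold above Hprt per kb in KO1 and 61.4-fold above it in KO2, or 46.6-fold and 107-fold per kb of the longest transcript. After the GC correction described below, the log2 ratio of KO2 over KO1 was 0.32 for Aprt and 0.17 for Hprt, against 1.01 and -0.18 as counted. Hprt made up 3.60% of the summed level of both salvage genes per kb in KO1 and 1.60% in KO2, while Hprt itself was at 1.34 and 1.18 CPM per kb.

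**Figure D1:**
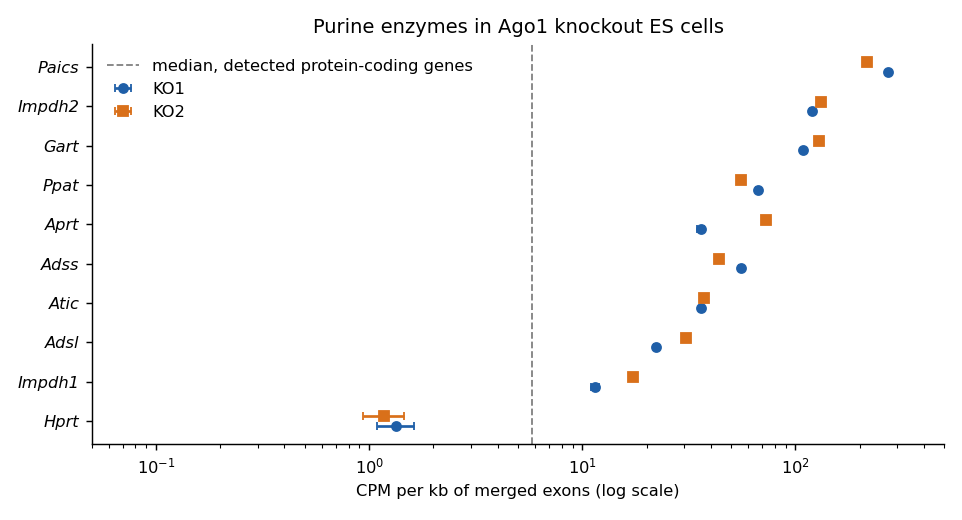
Level of each purine enzyme gene in CPM per kb of merged exons on a log axis, with KO1 as circles and KO2 as squares, and exact Poisson 95% intervals as bars where they are wider than the symbol. The dashed line is the mean over both libraries of the median of detected protein-coding genes, 5.79 CPM per kb, and Hprt, at 1.34 and 1.18, is the one gene of the 10 to its left.

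The 5 members of the path to IMP all lay well above Hprt. Ppat, the amidotransferase that commits PRPP to the pathway, was at 294 CPM in KO1 and 244 in KO2. Gart, whose protein carries several early activities, was at 557 and 661 CPM. Ppat was thus lower and Gart higher in KO2. Paics, which encodes a carboxylase and the synthetase after it, was the highest of the 10 at 856 CPM in KO1 and 682 in KO2. It made up 30.2% of the summed CPM of the members in KO1 and 24.0% in KO2.

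Adsl, the lyase that acts both before IMP and on the branch to AMP, was at 125 CPM in KO1 and 173 in KO2. Atic, which closes the purine ring to give IMP, was nearly equal in both libraries at 288 and 299 CPM. Ppat, Gart, Paics, Adsl and Atic together had a median of 66.4 CPM per kb in KO1 and 55.2 in KO2, against 5.57 and 6.02 for detected protein-coding genes. The summed level of all 10 members was 2834 CPM in KO1 and 2839 CPM in KO2, so the total differed little while single members differed in both directions.

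At the branch from IMP, Adss, the synthetase on the way to AMP, was at 251 CPM in KO1 and 199 in KO2. Impdh2, the dehydrogenase form known for proliferating cells, was at 366 and 404 CPM. Impdh1, the second form of that enzyme, was at 37.8 and 56.9 CPM and was the lowest member after Hprt. Per kb, Impdh2 made up 91.2% of the IMP dehydrogenase level in KO1 and 88.4% in KO2, a mean of 89.8% ± 2.00 (SD, n = 2). In counts the share was 90.7% (exact binomial 95% interval 90.3 to 91.0) in KO1 and 87.7% (87.3 to 88.1) in KO2, so as counted it was lower in KO2 beyond counting error. The direction turned with the correction for transcript GC content described below, after which the log2 ratio of KO2 over KO1 was -0.03 for Impdh2 and -0.11 for Impdh1. A processed pseudogene, Impdh2-ps, matches Impdh2 at 99.7% identity over 1545 bases and had 389 and 406 counts, so the split of reads between the gene and its copy is uncertain. Impdh1 itself was 8.57-fold above Hprt per kb in KO1 and 14.7-fold in KO2.

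These genes lie on separate chromosomes except for pairs on chromosomes 1 and 5. In GRCm38, Gart (ENSMUSG00000022962) lies on chromosome 16 from 91621186 to 91646952 and Adsl (ENSMUSG00000022407) on chromosome 15 from 80948490 to 80970946. Atic (ENSMUSG00000026192, 71557150 to 71579631) and Adss (ENSMUSG00000015961, 177762962 to 177796511) are far apart on chromosome 1. Impdh1 (ENSMUSG00000003500) lies on chromosome 6 from 29200434 to 29216364 and Impdh2 (ENSMUSG00000062867) on chromosome 9 from 108560286 to 108565584. Of the Gart exons, 19.7% lie under the antisense gene Gm15964, which had 17 and 23 counts.

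Ppat and Paics are neighbours on chromosome 5 and are transcribed away from each other. Ppat (ENSMUSG00000029246) lies from 76913249 to 76951578 on the minus strand and Paics (ENSMUSG00000029247) from 76951307 to 76967509 on the plus strand, so their first exons overlap by 272 bases on opposite strands. This overlap is 6.15% of the Ppat exons and 8.67% of the Paics exons, and the sources do not say to which gene reads in it were assigned. Both genes were lower in KO2, Ppat at 0.832-fold of KO1 (95% interval 0.813 to 0.851) and Paics at 0.797-fold (0.786 to 0.808). Per kb, Paics was 4.11-fold above Ppat in KO1 and 3.93-fold in KO2. As counted, the ratio between the neighbours was thus much the same in both libraries. With the longest transcript as the length, the ratio was 4.88 and 4.68. After the GC correction described below, the log2 ratio of KO2 over KO1 was -0.03 for Ppat and -0.25 for Paics.

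Ordered per kb of merged exons, the members ran from Paics at 245 ± 39.2 CPM per kb (SD, n = 2) through Impdh2 at 125 ± 8.75, Gart at 118 ± 14.3, Ppat at 60.8 ± 7.90, Aprt at 54.1 ± 25.8, Adss at 49.7 ± 8.03, Atic at 36.7 ± 0.940, Adsl at 26.5 ± 6.06 and Impdh1 at 14.4 ± 4.11 to Hprt at 1.26 ± 0.113. The ranges over both libraries overlapped between Impdh2 and Gart, between Ppat and Aprt, and between Aprt and Adss. Aprt, which had the widest range as a ratio of the libraries, also overlapped Atic, and Ppat narrowly overlapped Adss. All other neighbours in the order had ranges that did not overlap. With the longest transcript in place of merged exons, Atic was at 103 CPM per kb and took the fourth place, and Paics, Impdh2 and Gart stayed the 3 highest and Adsl, Impdh1 and Hprt the 3 lowest. The middle of the order therefore depends on the gene model, and its ends do not under these lengths. The median of the other 9 members was 41.4-fold above Hprt in KO1 and 46.9-fold in KO2, or 67.6-fold and 89.1-fold per kb of the longest transcript.

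To compare the libraries, the scaled count in KO2 was divided by that in KO1, and a 95% interval was taken from the exact binomial distribution of the reads given their sum. Genes with 50 or more reads in sum were called different if the interval excluded every ratio within 2-fold. The call measures size between 2 libraries of the same group, so no p-value goes with it. Of the 10 members, 10 were tested and 0 were called, 0 higher and 0 lower in KO2. Over 15619 genes 1.06% were called, 0.98% higher and 0.0768% lower. The median log2 ratio was 0.10 for the members and 0.01 for all genes tested, and the median absolute log2 ratio was 0.30 and 0.28.

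Aprt came closest to the rule, at a log2 ratio of 1.01 (95% interval 0.95 to 1.07), 2.02-fold higher in KO2. Its interval lay beyond 1.5-fold, as did that of 6.6% of genes (6.4% higher in KO2), and it was the one member for which this held. Impdh1 was 1.51-fold higher (1.43 to 1.59), Adsl 1.39-fold (1.34 to 1.43) and Gart 1.19-fold (1.17 to 1.21). Smaller ratios above equality were found for Impdh2 at 1.10-fold (1.08 to 1.13) and Atic at 1.04-fold (1.01 to 1.06). Adss was at 0.795-fold (0.775 to 0.815), beside the lower ratios of Ppat and Paics given above. The interval excluded equality for 6 members higher and 3 lower in KO2, but 65.5% of all genes tested had an interval that excluded equality, so this count is no feature of the members. Hprt was at 0.881-fold (0.649 to 1.19), and no difference was detectable at its depth of 181 counts.

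**Figure D2:**
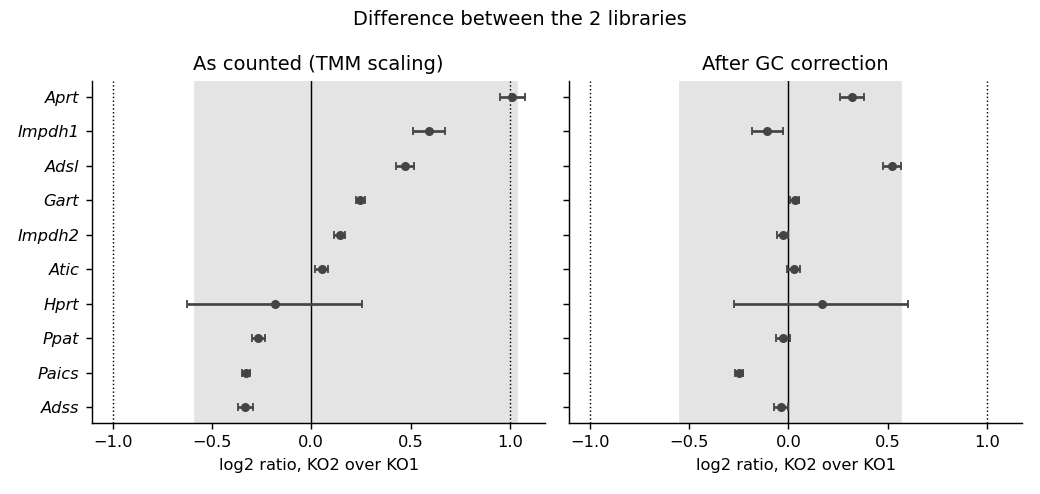
Log2 ratio of KO2 over KO1 for each member as counted (left) and after a correction for transcript GC content (right), with exact 95% counting intervals as bars. Grey marks the central 95% of all genes tested and dotted lines mark 2-fold. The members spread from -0.33 to 1.01 on the left, and on the right Adsl, at 0.52, lies farthest from 0.

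The ratios of the members largely followed their GC content. Aprt and Impdh1, the members richest in GC at 58.9% and 58.9% of the longest transcript, had the highest ratios. Adss and Ppat, at 42.4% and 44.1%, were among the lower ones. Others followed less closely. Hprt, lowest in GC at 40.1%, had a log2 ratio of -0.18, while Paics at 48.1% was at -0.33 and Adsl at 48.7% at 0.47. Across the 10 members the Spearman correlation of ratio and GC content was 0.830, given as a description of genes that share the same 2 libraries. After a loess correction fitted over all genes, the log2 ratio was 0.32 (0.26 to 0.38) for Aprt and -0.11 (-0.19 to -0.03) for Impdh1. Those of Gart, Atic, Impdh2, Ppat and Adss lay between -0.04 and 0.03. Adsl, with a GC content of 48.7%, kept its ratio, at 0.52 (0.48 to 0.56), and Paics stayed lower at -0.25 (-0.27 to -0.23). The corrected ratio of Hprt was 0.17 (-0.27 to 0.60), so its sign depended on the correction and its interval included equality both ways. After correction 0 of 10 members and 0.263% of genes lay beyond 2-fold, and 0 of 10 and 0.891% beyond 1.5-fold. The GC-corrected pair of neighbours no longer moved as closely, with Ppat at -0.03 (-0.06 to 0.01).

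**Figure D3:**
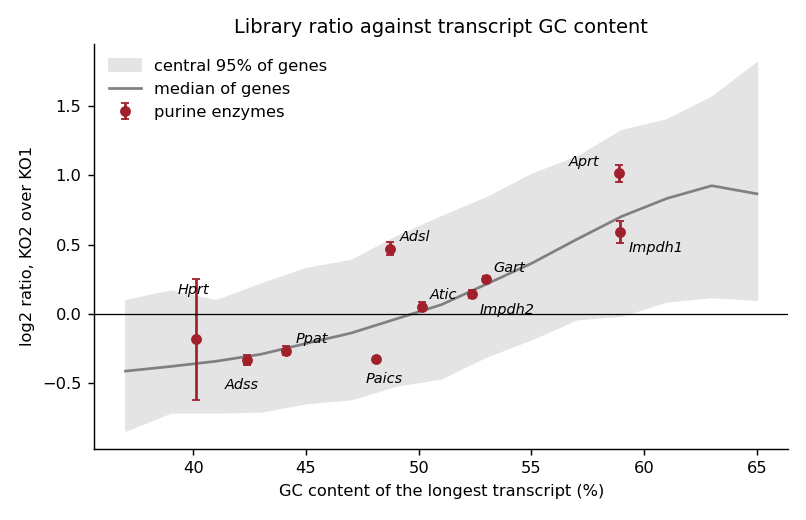
Log2 ratio of KO2 over KO1 against the GC content of the longest transcript, with the median (line) and central 95% (grey) of all genes in bins of 2 percentage points, and the members as points with 95% counting intervals. Aprt and Impdh1 sit at 58.9% GC near the rising right side of the line, and Adsl, at a log2 ratio of 0.47, lies above it.

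Of the protein-coding genes nearest to Hprt, some were expressed more highly per kb and others less. Phf6, a chromatin gene that ends 31.2 kb before Hprt, was at 11.1 CPM per kb in KO1 and 8.49 in KO2. The next genes on that side, Ccdc160 and Gpc3, the latter a cell-surface proteoglycan, were at 7.38 and 5.98 and at 10.2 and 9.10 CPM per kb. On the other side, Plac1, a placental gene, had 2 counts in each library, Fam122b was at 11.9 and 8.50 CPM per kb, and Fam122c was at 0 in both. Hprt therefore lay below 4 of the 6 nearest protein-coding genes and above the other 2, in both libraries.

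**Figure D4:**
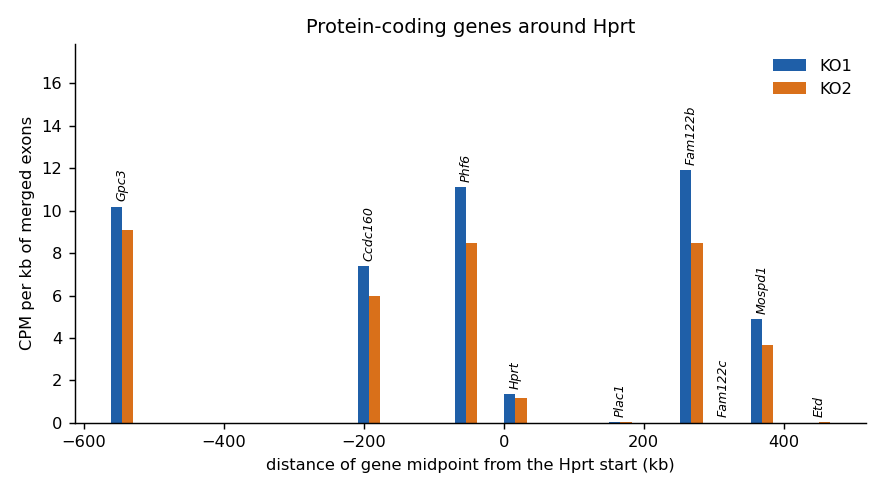
Level in CPM per kb of merged exons of protein-coding genes whose midpoint lies within 600 kb of the Hprt start, by distance in kb, with KO1 and KO2 as adjacent bars. Phf6 at 11.1 and 8.49 and Fam122b at 11.9 and 8.50 stand on either side of Hprt at 1.34 and 1.18. Plac1, between Hprt and Fam122b, was lower than Hprt at 0.0252 and 0.0262, and Fam122c was at 0 in both libraries.

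Among 16462 other protein-coding genes, those with levels nearest to Hprt in both libraries were Insr, the insulin receptor gene, at 1.34 and 1.18 CPM per kb, Zfp334 at 1.33 and 1.17, and the predicted gene Gm9887 at 1.35 and 1.17. Nearness was the larger of the 2 absolute log2 differences, and 41 genes lay within 0.1 of Hprt. With 2 libraries of 1 group such nearness is one of level only.

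The other genes of purine metabolism came from lists of genes by function. Of 7 genes that make PRPP or complete purine synthesis, 7 were detected, with a median of 26.8 CPM per kb. Prps1, a PRPP synthetase, was the highest at 105 CPM per kb in KO1 and 88.6 in KO2, followed by Prps2 at 32.9 and 26.6. Pfas, whose enzyme acts between steps of GART, was at 24.2 and 29.4, and Gmps, which makes GMP, at 29.3 and 24.2. The lowest were Prpsap1 at 23.3 and 28.7 and Adssl1, the muscle form of adenylosuccinate synthetase, at 0.859 and 1.45 CPM per kb. Adssl1 was the one gene of this list below Hprt in mean level.

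Of 13 listed genes of other salvage steps and nucleoside transport, 12 were in the table and 11 were detected. Prtfdc1, the relative of Hprt, had no match in GENCODE M21 and was not analysed here. The equilibrative transporter Slc29a1 was the highest at 49.6 CPM per kb in KO1 and 75.5 in KO2, followed by Pnp, which releases hypoxanthine and guanine from nucleosides, at 33.1 and 29.8. The lowest were Slc43a3, a purine base transporter, at 1.64 and 1.56, and the concentrative transporter Slc28a2, with 1 count in KO1 and 0 in KO2. The list had a median of 6.32 CPM per kb, so Aprt lay above the middle of the salvage genes and Hprt near its lower end.

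Of 19 genes of purine interconversion and breakdown, 15 were detected. Itpa, which clears inosine triphosphate, was at 55.4 CPM per kb in KO1 and 52.8 in KO2. The 4 genes under the threshold were Ampd1, the muscle AMP deaminase, with 47 and 38 counts, the guanine deaminase gene Gda with 25 and 25, the urate oxidase gene Uox with 6 and 5, and Xdh, which makes urate, with 2 and 2. The breakdown enzymes that act on free guanine and hypoxanthine were thus at or under 25 counts. Nme2 was low at 57 and 94 counts, and 48.9% of its exons lie under the overlapping gene Gm20390 on the same strand, so its count is uncertain. The sum of the muscle markers was 12.9 CPM in KO1 and 3.88 in KO2, beside Ampd1 at 0.827 and 0.696 CPM and Adssl1 at 1.80 and 3.04 CPM. Whether muscle RNA contributed to the levels of Ampd1 and Adssl1 was not tested.

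**Figure D5:**
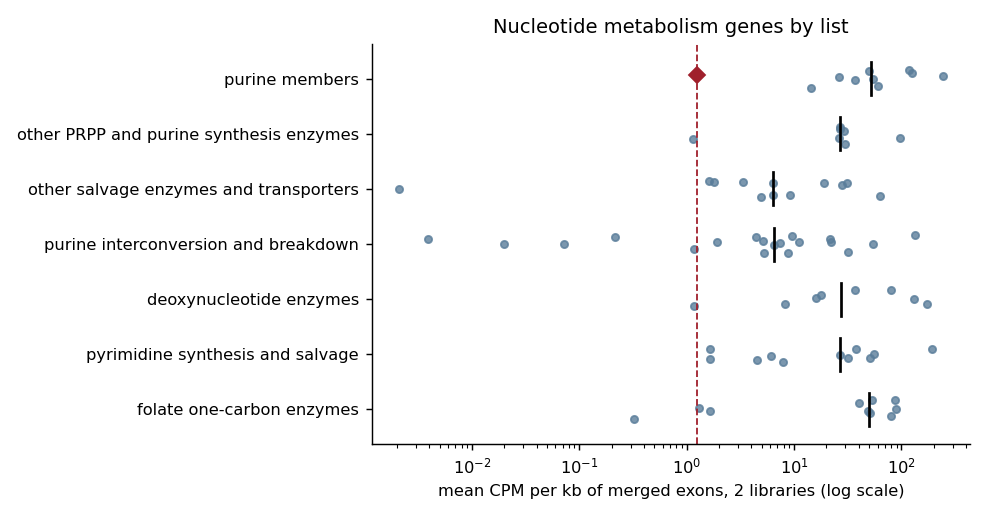
Mean level over both libraries, in CPM per kb of merged exons on a log axis, of each gene in the member list and 6 lists of nucleotide and one-carbon metabolism, with the list median as a bar. The diamond and dashed line mark Hprt at 1.26 CPM per kb, and 9 of the 67 list genes lie below it.

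Of 10 listed enzymes of folate one-carbon metabolism, the pathway that supplies the formyl groups that GART and ATIC use, 10 were detected. Mthfd1 and Shmt2 were the highest, at 80.8 and 95.3 and at 63.3 and 112 CPM per kb, and Aldh1l2 and Mthfd2l the lowest, at 1.29 and 1.30 and at 0.358 and 0.295. In all, 62 of the 67 genes of the 6 lists in the table were detected. The detection threshold was passed by 55.3% of protein-coding genes and 24.1% of all genes. Of the 64 list genes with 50 or more reads in sum, 0 were called different, against 1.06% of all genes. The list medians of the log2 ratio ran from -0.18 for PRPP and purine synthesis to 0.14 for pyrimidine synthesis and salvage, and after GC correction from -0.04 to 0.08.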

How the data were processed

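The deposited values are raw read counts per Ensembl gene, in 1 table, for 2 libraries of AGO1 knockout ES cells. Per the labels, libraries were made from polyadenylated RNA with an Illumina TruSeq kit by a reverse-stranded protocol. Per the submitters' processing notes, reads were placed on GRCm38. The sources used here name no aligner, counter, strand setting or annotation release.

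Of 55421 identifiers, 55240 were found in GENCODE M21, which gave symbols, positions, merged exon lengths and the GC content of the longest transcript. Counts were scaled with edgeR 4.0.16 (TMM factors 0.996 and 1.00) in R 4.3.3. With 1 group, no quasi-likelihood test could be made. Log2 ratios used a prior count of 0.5. The GC correction was a loess fit with a span of 0.3 (statsmodels 0.14.6). Exon overlaps were made with bedtools 2.31.1 and transcript matches with blastn 2.17.0. The ratio rule and the correction were tested on simulated counts. PCR copies of a molecule are counted as reads, so intervals and the floor of 3 counts (0.0528 CPM in KO1, 0.0549 in KO2) cover counting error only.

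Members and lists, the muscle markers included, were chosen with earlier results of these data known. The genes named were all members, Prtfdc1, Ago1, the 2 highest and 2 lowest of each pathway list, list genes under 1 CPM, 3 protein-coding neighbours of Hprt on each side, 3 genes nearest to Hprt in level, and transcripts matching a member. A gene that this rule names is not reported here. Pfas, Gmps, Nme2, Dhodh, Gm20390 and the markers printed were named outside that rule, after their values were seen. Alternatives were other scalings, lengths, thresholds and prior counts, single libraries and the GC correction.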

Additional observations from a re-analysis of the deposited data

How the results depend on the processing

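No paired analysis was possible because KO1 and KO2 belong to the same group. The mean Hprt level of 1.26 CPM per kb was 1.26 with DESeq2 1.42.0 size factors, unscaled library sizes and the longest transcript. It was 1.18 to 1.34 with each library alone. The longest transcript of Hprt has the same 1289 bases as its merged exons, and all scaling factors were near 1. The length setting could therefore not move this level and the scalings hardly could, so neither is a check of it. Either of 2 libraries always lies within 1 SD of their mean, so the single-library values are no check of stability. Hprt ranked 10 of 10 under every length and library tried. That rank is a description and no check, since Hprt was chosen for its low level in these same 2 libraries. The Hprt share of Hprt plus Aprt, 2.60%, was 1.60% to 3.60% with each library alone and 1.51% with the longest transcript. With the longest transcript, the Impdh2 share moved from 89.8% to 92.0%, the Paics to Ppat ratio from 4.02 to 4.78, and the levels of 7 of the 9 other members by more than 1 SD. At a CPM of at least 10, 9 of 10 members and 50 of 67 list genes were detected. The share of all genes at that threshold was not taken. The count of members differing, 0, was 1 beyond 1.5-fold, and that member was Aprt. The count of all genes, 165, was 1031 beyond 1.5-fold, 24 beyond 3-fold and 41 with the GC correction. Of the 10 member ratios, 8 moved outside their counting interval with the GC correction and 7 with DESeq2 size factors, which came out as 1 in both libraries and left them unscaled. Atic then changed sign, from 0.05 to -0.0041, and with the GC correction Impdh1, Impdh2 and Hprt did. Hprt, at 181 counts, had the widest counting interval of the members.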

Other observations

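Genes of deoxynucleotide and pyrimidine metabolism were expressed alongside the purine enzymes. Of 8 deoxynucleotide genes, 8 were detected, led by Rrm2, the small subunit of ribonucleotide reductase, at 175 CPM per kb in KO1 and 173 in KO2, and Dctpp1, a dCTP phosphatase, at 100.2 and 162. The lowest were Tk1, the cytosolic thymidine kinase, at 6.61 and 9.85, and Rrm2b, the p53-regulated reductase subunit, at 1.36 and 0.982. Of 11 pyrimidine genes, 11 were detected. Upp1, a uridine phosphorylase, was the highest at 176 and 210 CPM per kb, and Umps, which makes uridine monophosphate, followed at 53.3 and 58.9. Uckl1 at 1.60 and 1.71 and Uprt, named as a uracil phosphoribosyltransferase, at 1.88 and 1.41 were the lowest. The first list had a median of 27.3 CPM per kb and the second of 26.9, beside 51.9 for the 10 purine members.

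Outside the members, Tk1 and the pyrimidine gene Dhodh had log2 ratios of 0.58 and 0.49 in KO2 over KO1 that stayed at 0.44 and 0.42 after the GC correction, beside 0.52 for Adsl. They were picked after their values were seen, the ratios compare 2 libraries of 1 group, and no explanation was tested.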
